A study of Bos taurus with 90 samples.

Results

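BHMT2 (ENSBTAG00000038234) is 1 of the 24616 genes counted in the liver of Charolais (CH) and Holstein-Friesian (HF) steers that differed in residual feed intake (RFI). RFI is the difference between the feed an animal ate and the feed predicted from its weight and growth, so that a low value marks the more efficient animal. The gene was chosen for its difference between low and high RFI CH steers on grass, and its level is described here in all 90 libraries. Liver biopsies were taken at the end of 3 dietary phases, which ran in the order H1, ZG and H2. H1 and H2 were the same barley-based high-concentrate diet with restricted grass silage, offered in the growing and finishing stages, and ZG was fresh zero-grazed grass offered between them. No treatment other than the diet is given, and RFI was ranked within breed in each phase. CH had 9 low and 11 high RFI libraries for H1, 3 and 3 for ZG, and 9 and 8 for H2. HF had 7 low and 9 high RFI libraries for H1, 10 and 8 for ZG, and 5 and 8 for H2. ZG differed from H1 and H2 in diet, age and time together, which cannot be told apart, while H1 and H2 shared a diet and differed in age and time. The libraries of each RFI group are those of the extremes of the herd, not of its middle.

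BHMT2 encodes betaine-homocysteine S-methyltransferase 2, an enzyme of liver and kidney that turns homocysteine into methionine with S-methylmethionine as the methyl donor. Its close relative BHMT carries out the same step with betaine as the donor. The betaine pathway leaves dimethylglycine, which the mitochondrial enzymes dimethylglycine dehydrogenase (DMGDH) and sarcosine dehydrogenase (SARDH) turn into sarcosine and then glycine. Homocysteine itself is released by S-adenosylhomocysteine hydrolase (AHCY), and glycine is broken down by a complex that holds glycine decarboxylase (GLDC). In the RefSeq annotation of ARS-UCD2.0, BHMT2 lies between DMGDH and BHMT. Of its 5 neighbours on each side, DMGDH was the 1 whose identifier could be matched. BHMT and BHMT2 are near copies. The study counted reads per gene with the gene count mode of STAR, and how many reads fit both genes was not examined.

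The libraries held 9097695 to 63621304 reads on genes, with a median of 18858293, and BHMT2 took 59 to 1364 of them, with a median of 352. Counting error alone was thus 2.71% to 13.0% of a BHMT2 value. The rank correlation (Spearman rho) of BHMT2 deviations from the group means with the library total was -0.10 over the 90 libraries. None of the 47 cell type markers could be matched to an identifier. Genes of proteins that hepatocytes secrete, chosen after their names were seen, were detected in every library, with no library under 5526 CPM for the fibrinogen chain FGA, 5697 CPM for the fibrinogen chain FGG, 729 CPM for the apolipoprotein APOC3 or 40.0 CPM for the fetuin gene FETUB. In tissue such as this, fewer cells of a type and less RNA per cell cannot be told apart. Steer number 1797 was labelled CH for H1, with 17.9 CPM of BHMT2, and HF for H2, with 9.46 CPM. Values without both of its libraries are given where they differ.

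BHMT2 was detected in every library, at 7.06 to 44.4 CPM (counts per 1000000 reads on genes, after TMM scaling between libraries), with a median of 17.5 CPM. The highest library was 6.29 times the lowest. Of the 90 libraries, 82 were under 30 CPM. The other 8 were the 3 low RFI CH steers on ZG, 1 low RFI CH steer each in H1 and H2, 2 low RFI HF steers on ZG and 1 high RFI HF steer on ZG. The CH steer in H1, number 1831, is also 1 of the 3 on ZG. The biological coefficient of variation within groups was 34.0%, against 27.3% for genes of the same abundance, and 72.8% of 13945 genes had a lower dispersion.

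Low RFI CH steers on ZG had the highest mean of the 12 groups, 40.8 ± 4.34 CPM (SD, n = 3). The 11 other group means lay between 15.5 ± 4.53 CPM (n = 7) in low RFI HF steers for H1 and 21.6 ± 8.04 CPM (n = 10) in low RFI HF steers on ZG. Ordered by mean, neighbours among these 11 groups overlapped, and no gap between them was larger than the larger SD of the pair. The gap of 19.2 CPM from the 11th group to the low RFI CH steers on ZG was larger than either SD. The ranges of these 2 groups did not overlap. Other groups did overlap the range of the low RFI CH steers on ZG, 35.8 to 43.4 CPM. Their highest libraries were at 44.4 CPM in high RFI HF steers on ZG, and at 38.0 and 35.9 CPM in low RFI CH steers in H1 and H2. The gap is a description, since the low RFI CH steers on ZG led to the choice of the gene. High RFI CH steers on ZG were second lowest, at 16.8 ± 0.772 CPM (n = 3), and had the smallest spread of all groups.

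**Figure D1:**
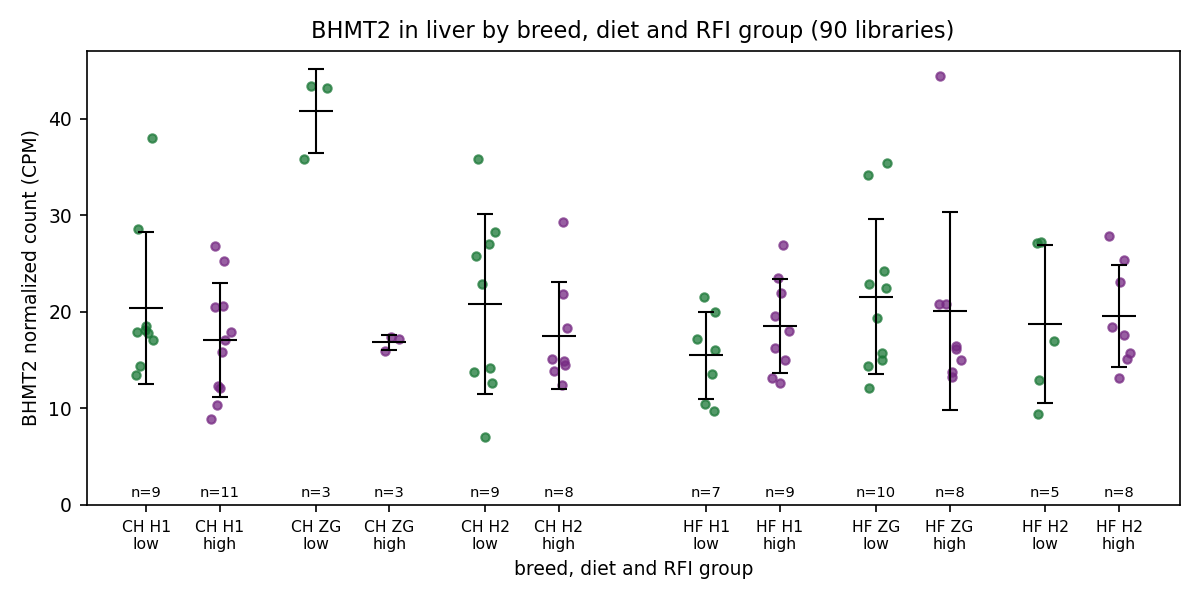
BHMT2 normalized counts (CPM, vertical axis) in each of 90 libraries by breed, diet and RFI group, with 1 point per library, green for low and purple for high RFI, and the group mean with its SD in black. The 3 low RFI CH steers on ZG sit at 35.8 CPM or more, and most points of the 11 other groups lie under 30 CPM.

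The difference that led to the choice of the gene was that between low and high RFI CH steers on ZG. BHMT2 was at 35.8, 43.2 and 43.4 CPM in low RFI steers 357, 1831 and 788, and at 16.0, 17.2 and 17.4 CPM in high RFI steers 307, 437 and 1816. Every low RFI steer was above every high RFI steer. The log2 fold change of low over high RFI was 1.29 (SE 0.16) in the edgeR fit. No test is given, since this contrast chose the gene. In the same 6 libraries, 13.1% of 13022 genes had every low RFI steer above every high RFI steer, and 14.4% had every one below. The edgeR quasi-likelihood test called 0% of 13025 genes there at an adjusted p under 0.1, with 1755 genes at an unadjusted p under 0.05, while DESeq2 called 158.

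In the other 5 RFI comparisons, whose libraries the choice did not use, BHMT2 did not pass the test. The ranges of low and high RFI steers overlapped in each. Some animals are shared with the choice, since CH steers 307, 1816 and 1831 also have libraries in H1, and 307 in H2. For CH in H1, the lowest, median and highest low RFI libraries were at 13.5, 17.9 and 38.0 CPM, and the high RFI libraries at 8.85, 17.1 and 26.8 CPM. Low RFI steers included the highest library, but 7 of the 9 lay within the high RFI range. This gave a log2 fold change of 0.27 (SE 0.21, 95% interval -0.17 to 0.72, adjusted p = 0.644), where edgeR called 0.0155% of 12920 genes. For CH in H2, low RFI libraries ran from 7.06 over a median of 22.9 to 35.9 CPM and high RFI libraries from 12.5 over 15.0 to 29.3 CPM. Both the lowest and the highest library of this phase in CH were thus low RFI steers. Low over high RFI was 0.26 on the log2 scale (SE 0.27, 95% interval -0.30 to 0.82, adjusted p = 0.998).

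For HF in H1 the direction of the values was opposite, with low RFI libraries at 9.75, 16.0 and 21.6 CPM (lowest, median, highest) and high RFI libraries at 12.7, 18.0 and 26.9 CPM. In the fit the difference was -0.27 (SE 0.18, 95% interval -0.66 to 0.12, adjusted p = 0.804). On ZG, where the CH groups did not overlap, low RFI HF libraries were at 12.2, 20.9 and 35.4 CPM and high RFI libraries at 13.3, 16.3 and 44.4 CPM. The highest BHMT2 level of the study was that of a high RFI steer, number 5633, and the next in its group was 20.8 CPM. On ZG the difference was 0.08 (SE 0.25, 95% interval -0.44 to 0.60, adjusted p = 1.00). In H2, low RFI HF steers 1797, 1657, 5612, 2071 and 2220 had 9.46, 12.9, 17.0, 27.1 and 27.3 CPM, while the high RFI libraries ran from 13.1 over 18.0 to 27.9 CPM. The log2 fold change was -0.06 (SE 0.26, 95% interval -0.60 to 0.49, adjusted p = 1.00) and turned to 0.12 without steer 1797.

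Exact permutation tests over the steers gave two-sided p-values of 0.252 and 0.628 for CH in H1 and H2, and of 0.205, 0.615 and 0.648 for HF in H1, ZG and H2. Adjusted over these 5 comparisons they were 0.631 to 0.648. edgeR called 0% of genes for CH in H2 and for HF in each phase, with 355, 863, 261 and 435 genes at an unadjusted p under 0.05, and DESeq2 called 4, 26, 2 and 5. A single RFI effect fitted over the 5 comparisons was 0.06 on the log2 scale (SE 0.11, 95% interval -0.17 to 0.28, adjusted p = 1.00). It was 0.04 (SE 0.11) without the steers that also have a library of CH on ZG. Whether the RFI difference in CH on ZG differs from those elsewhere was not tested, because the gene was chosen on it.

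Diet phases were compared within each breed, with both RFI groups weighted equally. BHMT2 averaged 18.6 ± 6.88 CPM (n = 20) in CH for H1, 28.8 ± 13.4 CPM (n = 6) for ZG and 19.3 ± 7.76 CPM (n = 17) for H2. In HF the means were 17.2 ± 4.82 CPM (n = 16), 20.9 ± 8.83 CPM (n = 18) and 19.2 ± 6.22 CPM (n = 13). These means over both RFI groups were highest on ZG in both breeds, with wide overlap between phases. By RFI group, low RFI means in H1, ZG and H2 were 20.4, 40.8 and 20.8 CPM in CH and 15.5, 21.6 and 18.8 CPM in HF. High RFI means were 17.1, 16.8 and 17.5 CPM in CH, lowest on ZG. In high RFI HF steers they were 18.6, 20.1 and 19.5 CPM, with medians of 18.0, 16.3 and 18.0 CPM. The ZG mean there includes steer 5633 at 44.4 CPM.

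In the fits, ZG over H1 was 0.49 (SE 0.22, adjusted p = 0.117) in CH and 0.30 (SE 0.17, adjusted p = 0.126) in HF, and neither passed. The edgeR test called 25.9% and 57.7% of genes in these comparisons. The CH value rests on 6 ZG libraries, 3 of them the low RFI steers that led to the choice of BHMT2. It is thus not free of that choice, nor is its p-value. In limma-voom it was 0.56 (adjusted p = 0.0568) without and 0.54 (adjusted p = 0.0276) with the steer as a block, both under the threshold. Over 14 alternatives the adjusted p ran from 0.0276 to 0.277. From ZG to H2 the change was -0.46 (SE 0.23, adjusted p = 0.267) in CH and -0.12 (SE 0.18, adjusted p = 0.781) in HF, with 4.62% and 4.65% of genes called. The CH change takes in the same low RFI libraries on ZG.

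Between the 2 high-concentrate phases, H2 over H1, most genes were called, 68.0% in CH and 61.1% in HF. BHMT2 was not among them, with 0.03 (SE 0.16, 95% interval -0.30 to 0.36, adjusted p = 0.885) in CH and 0.18 (SE 0.18, 95% interval -0.19 to 0.55, adjusted p = 0.407) in HF.

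Between breeds, CH exceeded HF by 0.14 on the log2 scale in H1 (SE 0.15, adjusted p = 0.718), by 0.32 on ZG (SE 0.22, adjusted p = 1.00) and by 0.00015 in H2 (SE 0.20, adjusted p = 1.00), where it turned to -0.084 without steer 1797. edgeR called 4.97%, 0% and 0.64% of genes between breeds in these phases. For ZG, 404 genes had an unadjusted p under 0.05 and DESeq2 called 14. The difference between CH and HF in the change from H1 was 0.19 (SE 0.29) for ZG and -0.14 (SE 0.25) for H2, each with an adjusted p of 1.00. For these 2 contrasts 0% of 13945 genes were called, 418 and 330 had an unadjusted p under 0.05, and DESeq2 called 1 and 0. The breed differences given here for ZG take in the low RFI CH libraries that led to the choice of the gene.

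**Figure D2:**
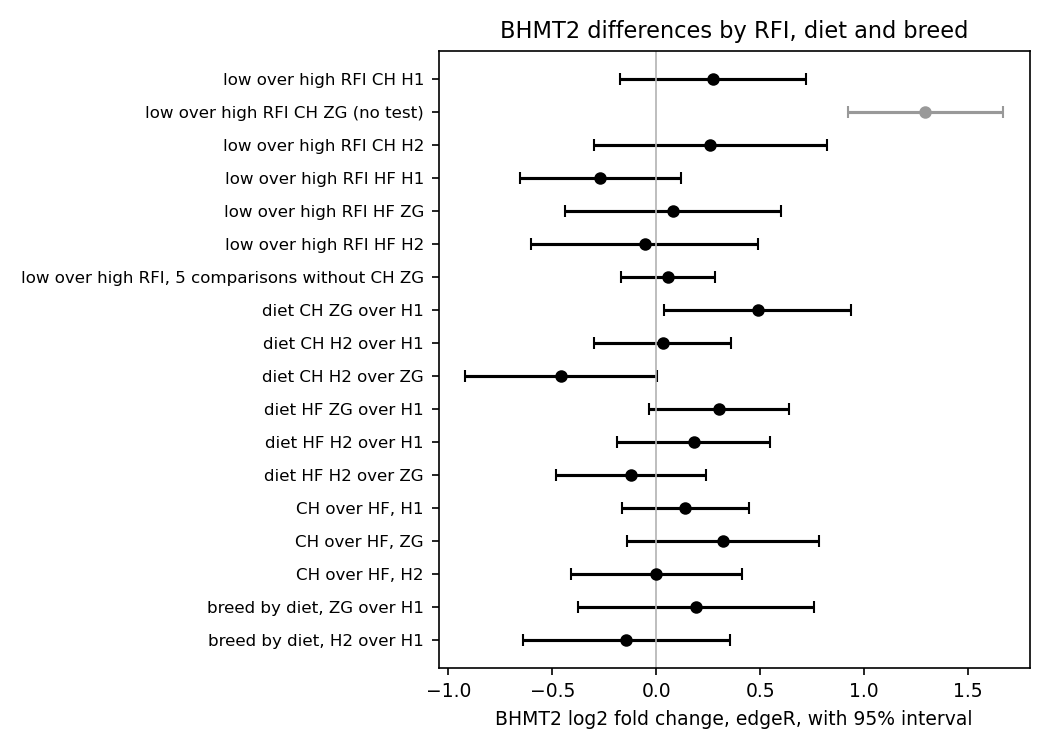
Log2 fold changes of BHMT2 (horizontal axis) with 95% intervals from the edgeR fits, for 6 RFI comparisons, their joint effect without CH on ZG, 6 diet comparisons, 3 breed comparisons and 2 differences between breeds in the diet change. The grey point, low over high RFI in CH on ZG, chose the gene and has no test. None of the 17 others was called at an adjusted p under 0.1. Among the 17, 1 interval leaves out 0, that of ZG over H1 in CH. Every contrast that includes CH on ZG takes in the low RFI libraries that led to the choice of the gene.

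The 90 libraries carried 73 steer numbers, and 14 of these came back in a later phase within their breed. Among CH steers, number 1831 was high both times, at 38.0 CPM in H1 and 43.2 CPM on ZG, with low RFI in both. Steer 1816 was at 14.4 CPM in H1 as a low RFI animal and at 17.4 CPM on ZG as a high RFI animal. Steer 307 had 12.3, 16.0 and 13.7 CPM in H1, ZG and H2, and moved from high to low RFI in H2. These values are all under the CH median of 17.9 CPM for H1. The remaining CH steers, 1100, 1320 and 364, went from 17.9 to 13.9 CPM, from 17.1 to 18.4 CPM and from 15.8 to 12.5 CPM between H1 and H2.

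Among HF steers, number 5632 had 9.75, 24.2 and 18.4 CPM in H1, ZG and H2, and its step from H1 to ZG was the largest of the 18 pairs. Steers 2065 and 2069 went from 19.6 to 35.4 CPM and from 13.1 to 20.8 CPM between H1 and ZG. Steer 2220 went from 13.6 to 27.3 CPM between H1 and H2, while steers 2071 and 2101 stayed high, from 23.5 to 27.1 CPM and from 26.9 to 25.3 CPM. Steers 1639 and 5612 went from 16.2 to 27.9 CPM and from 12.2 to 17.0 CPM between ZG and H2.

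Over 18 pairs of libraries from the same steer, the median absolute log2 difference was 0.37, with a range of 0.09 to 1.30. Steers with libraries from every phase gave several of these pairs. The SD between steers within groups was 0.50. This SD is a different measure and cannot be set against the differences, which also take in the change between phases. As deviations from the group means, the earlier and later phase of the 14 steers had a Pearson r of 0.24 (permutation p = 0.419) and a Spearman rho of 0.25 (permutation p = 0.384). Without the 2 steers farthest from the median, r was 0.36. An r at least as high was found for 33.1% of 13945 genes, whose median r was 0.11. The 6 CH steers gave an r of 0.28 (exact permutation p = 0.681) and a rho of 0.37 (exact permutation p = 0.497), and r was 0.065 without 2 of them. The 8 HF steers gave an r of 0.69 (exact permutation p = 0.0615, adjusted over the 3 relations 0.184) and a rho of 0.67 (exact permutation p = 0.0831), and r was 0.83 without 2 of them. No agreement between phases beyond the spread of pairings was thus detected, but with so few steers its absence is not shown. Each steer also counts in its own group mean, which draws deviations toward that mean in small groups such as CH on ZG. CH steer 1831 deviated by 0.97 in H1 and by 0.09 on ZG. Measured from the breed and diet mean, with the RFI groups joined, the CH value was 0.95, and 0.65 without 2 steers. It takes in the RFI difference on ZG that led to the choice of the gene, so no test is given.

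Steers with libraries for both H1 and ZG were 3 in each breed, and BHMT2 was higher on ZG in 6 of 6, by 1.14 to 2.47 times. The mean log2 difference was 0.61 ± 0.42 (SD, n = 6). This comparison was chosen after the values were seen, and 3 of the 6 ZG libraries belong to the contrast that led to the choice of BHMT2, so it is a description with no test. Of 13945 genes, 12.4% were higher in all 6 steers. From H1 to H2, 5 of 8 steers were higher, with a mean log2 difference of 0.20 ± 0.51 (SD, n = 8; exact permutation p = 0.344).

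**Figure D3:**
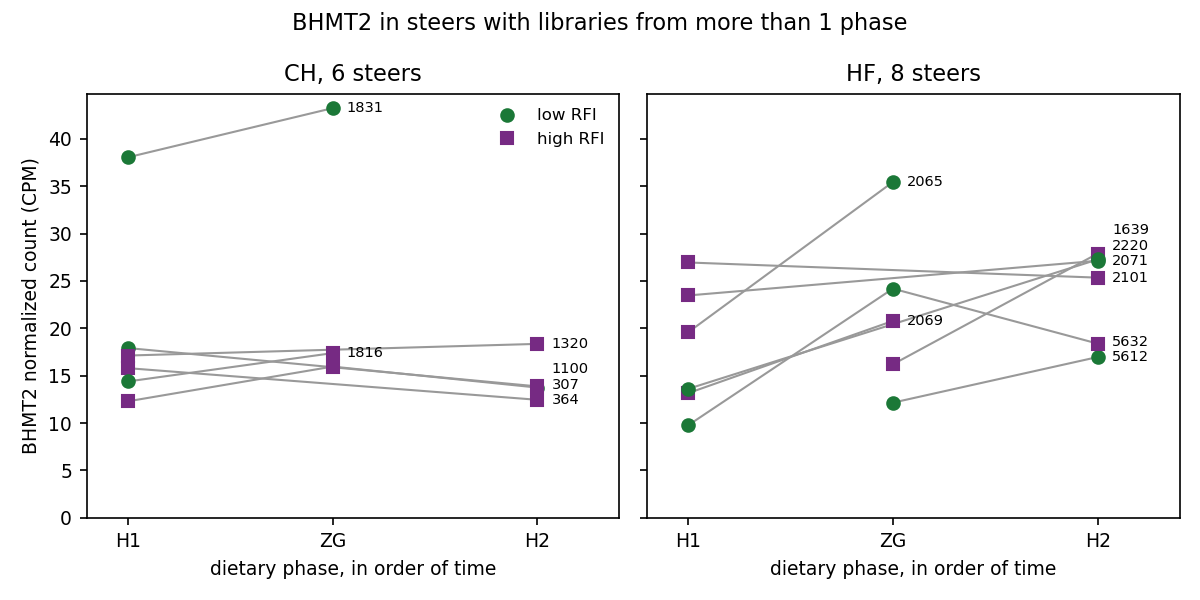
BHMT2 normalized counts (CPM, vertical axis) of 14 steers with libraries from more than 1 phase, in time order on the horizontal axis, with 1 line per steer named by its number, circles for low and squares for high RFI. All 6 lines from H1 to ZG rise, and CH steer 1831 lies far above the other CH steers in both phases.

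Of 30 genes listed for the methionine cycle and the pathways that join it, 5 (16.7%) could be matched to an identifier, so the list as a whole was not assessed. The matched genes are BHMT2, DMGDH, SARDH, AHCY and GLDC, and the names came from the study's own lists of RFI genes. Outside the contrasts for which the study listed them, 0 of 25 tests of these 5 genes between RFI groups within a breed and diet passed. Over all genes, edgeR called 0.0155% for CH in H1 and 0% in each other RFI comparison. The count thus says little about these genes in particular.

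DMGDH (ENSBTAG00000002110), next to BHMT2, was at 291, 368 and 464 CPM in low RFI CH steers on ZG and at 175, 195 and 229 CPM in high RFI steers. The groups did not overlap, and the log2 fold change of 0.92 (SE 0.22) is a description, since the study listed DMGDH there. DMGDH was called higher than in H1 in both later phases of both breeds. The log2 fold change of ZG over H1 was 0.57 (SE 0.16, adjusted p = 0.0180) in CH and 0.67 (SE 0.11, adjusted p = 2.2e-05) in HF, and that of H2 over H1 was 0.26 (SE 0.12, adjusted p = 0.0538) and 0.46 (SE 0.12, adjusted p = 0.00291). In CH on ZG the call was lost without low RFI steer 788, at 0.47 (adjusted p = 0.127). The CH value on ZG takes in the libraries for which the study listed DMGDH. It is thus not free of that listing, nor is its p-value. Low RFI means in CH were 181 CPM in H1 and 374 CPM on ZG, and high RFI means were 189 and 200 CPM. Genes called higher were 13.3% and 29.7% for ZG over H1 in CH and HF, and 35.3% and 30.6% for H2 over H1. DMGDH was also higher in CH than in HF in H1, by 0.31 (SE 0.09, adjusted p = 0.0647), where 1.44% of genes were called higher in CH.

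SARDH, which acts on the product of DMGDH, moved the other way. It averaged 67.3 ± 15.0 CPM (n = 20) in CH for H1, 43.7 ± 26.6 CPM (n = 6) on ZG and 33.5 ± 24.9 CPM (n = 17) in H2, and 71.4 ± 24.9 CPM (n = 16), 40.0 ± 27.9 CPM (n = 18) and 31.5 ± 16.1 CPM (n = 13) in HF. SARDH was called lower than in H1 in both later phases of both breeds, as were 12.6% and 32.7% of genes for ZG and H2 in CH, and 28.0% and 30.5% in HF. The log2 fold change was -0.81 (SE 0.34, adjusted p = 0.0871) for ZG and -1.01 (SE 0.23, adjusted p = 0.000313) for H2 in CH, and -0.85 (SE 0.31, adjusted p = 0.0215) and -1.15 (SE 0.35, adjusted p = 0.00677) in HF. The CH call on ZG was lost without high RFI steer 307 (adjusted p = 0.167), high RFI steer 1816 (adjusted p = 0.181) or low RFI steer 788 (adjusted p = 0.305), with no filter on low counts (adjusted p = 0.114) and when the 12 groups were fitted together (adjusted p = 0.165). Between RFI groups of CH on ZG, the contrast for which the study listed SARDH, low RFI steers were at 11.2 to 29.8 CPM. High RFI steers were at 51.4 to 86.3 CPM, the reverse of BHMT2 and DMGDH. The change from H1 to ZG in CH takes in these libraries, so its p-value is not free of that listing. Low RFI means of SARDH in CH were 68.8 CPM in H1 and 22.8 CPM on ZG, and high RFI means were 66.0 and 64.6 CPM.

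AHCY was called higher in H2 than in H1 in CH, by 0.31 (SE 0.10, adjusted p = 0.00864), and on ZG than in H1 in HF, by 0.25 (SE 0.09, adjusted p = 0.0293). The other 2 changes from H1 were 0.17 (SE 0.14, adjusted p = 0.393) for ZG in CH and 0.18 (SE 0.10, adjusted p = 0.135) for H2 in HF. GLDC was not called in any of the 6 diet comparisons. It was lower in CH than in HF in H1, at -0.25 (SE 0.08, adjusted p = 0.0964) on the log2 scale, with 3.53% of genes called lower. The study listed AHCY and GLDC for RFI in CH in H1. Contrasts that take in those libraries are thus not free of that listing, nor are their p-values. Low and high RFI means in CH in H1 were 1656 and 2085 CPM for AHCY. For GLDC they were 176 and 211 CPM in CH in H1, and 230 and 227 CPM in HF in H1.

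Genes were then ordered by the likeness of their pattern to BHMT2, as the Pearson r of deviations from the 12 group means over the 90 libraries, which share depth and scaling. Among 13944 genes, 33 had an r of 0.5 or more and 1 had an r of -0.5 or less. The highest were ENSBTAG00000017682 and ENSBTAG00000010760, both with an r of 0.58, and the lowest was ENSBTAG00000010851, with -0.51, none of which has a name in the tables used. Of the 327 genes with names, DMGDH was the most alike, with an r of 0.42 and rank 156, followed by the bile acid carrier family gene SLC10A5 with 0.42. VASN, which encodes the membrane protein vasorin, was the lowest named gene, with -0.45.

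With 1 library per steer, the relation of BHMT2 with DMGDH had an r of 0.44 (permutation p = 0.00014, adjusted over 4 genes 0.00056) and a rho of 0.33 (permutation p = 0.00468) over 73 steers, and r was 0.36 without the 2 farthest steers. Within breeds, r was 0.65 (permutation p = 6e-05) and rho 0.49 (permutation p = 0.0029) in 36 CH steers, with an r of 0.47 without 2 of them. In 37 HF steers r was 0.12 (permutation p = 0.494) and rho 0.15 (permutation p = 0.363). Over the 73 steers, SARDH, AHCY and GLDC had an r of -0.17 (adjusted permutation p = 0.213), -0.20 (adjusted permutation p = 0.182) and 0.056 (adjusted permutation p = 0.636) with BHMT2. In CH steers SARDH had an r of -0.49 (permutation p = 0.00262), a rho of -0.38 (permutation p = 0.0238) and an r of -0.38 without 2 steers. AHCY in CH had an r of -0.42 (permutation p = 0.0142), a rho of -0.22 (permutation p = 0.201) and an r of -0.25 without 2 steers. In HF steers the r was 0.10 (permutation p = 0.550) for SARDH and 0.077 (permutation p = 0.652) for AHCY. GLDC had an r of -0.061 (permutation p = 0.722) in CH and 0.17 (permutation p = 0.321) in HF. The CH relations include low RFI steer 454 in H2, whose BHMT2 (7.06 CPM) and DMGDH (94.1 CPM) were the lowest of all libraries. The same library had the outlying SARDH (107 CPM) and AHCY (4868 CPM) of its group. The CH values without 2 steers leave it out. The p-values within breeds are unadjusted, and differences between the breeds were not tested. CH steers 357, 437 and 788 enter with their libraries on ZG. These belong to the contrast that led to the choice of BHMT2 and for which the study listed DMGDH and SARDH. Deviations from the group means take out the difference between RFI groups. The relations without these libraries were not computed, so their p-values are not free of the choice.

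**Figure D4:**
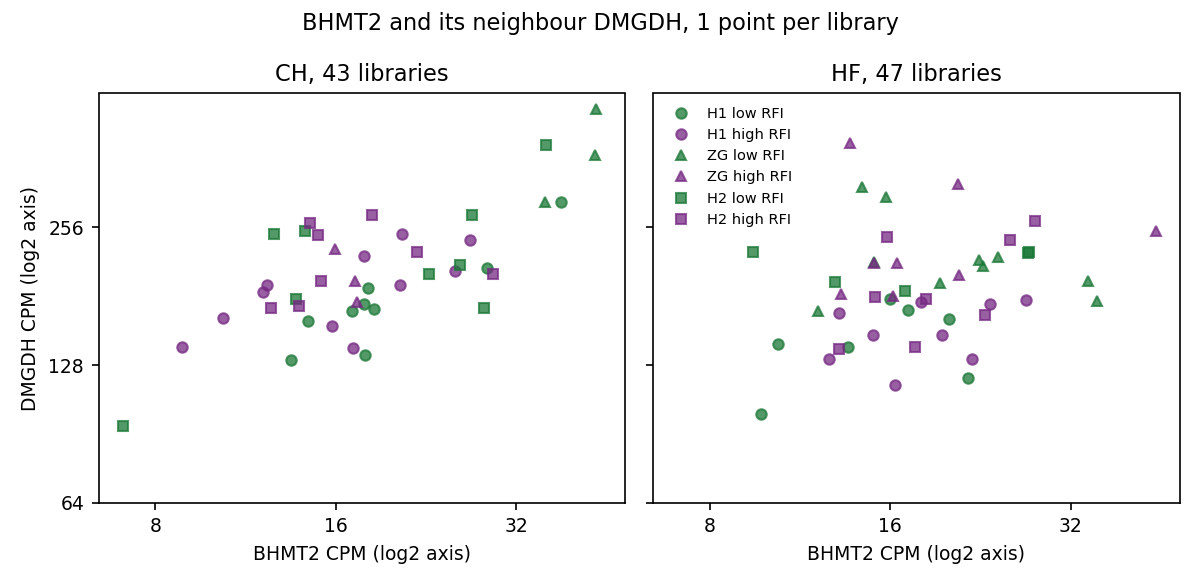
BHMT2 (horizontal) against DMGDH (vertical) normalized counts in CPM on log2 axes, 1 point per library, CH on the left and HF on the right, with the marker for the diet and the colour for the RFI group. The plotted values keep the differences between groups. In CH the libraries with most BHMT2 also have high DMGDH. These include the low RFI steers on ZG that led to the choice of BHMT2, where the study also listed DMGDH. In HF the points show little relation, and the difference between breeds was not tested.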

How the data were processed

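The authors made stranded mRNA libraries from liver biopsies and read them from 1 end over 50 bases. Per the labels and the methods, reads were trimmed, aligned to UMD3.1 with STAR (2.5.3a in the submitters' processing notes) and counted per Ensembl gene. The authors deposited raw counts of 24616 genes without normalization, so trimming, alignment and counting could not be varied, and the strand column taken is not given in the sources used here. Columns of all 90 libraries were used. A table with the study's fold changes and p-values was used only to pair 328 identifiers with gene names. Positions were not used, and gene order came from RefSeq ARS-UCD2.0.

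Groups follow the labels. Counts were tested with edgeR 4.0.16 (R 4.3.3, TMM, filterByExpr, robust quasi-likelihood, Benjamini-Hochberg adjustment over all genes tested, called at an adjusted p under 0.1), each breed and diet alone for RFI, each breed for diet and each diet for breed. SE and approximate 95% intervals derive from the F statistic. Levels are CPM; steer relations use log2 CPM with a prior count of 2. Permutation tests in Python 3.11.15 (scipy 1.17.1) were two-sided, exact between RFI groups and below 10 steers, and otherwise with 100000 resamples. Alternatives were DESeq2 1.42.0, its size factors, no filter, a threshold of 0.05, all 12 groups in one fit, limma-voom 3.58.1 with and without the steer as a replicate block, steers of groups of 5 or fewer left out in turn, and the data without steer 1797. The same number within a breed was taken as the same animal, and the within-steer correlation over genes was 0.462 in CH and 0.0108 in HF. The fits were tested on simulated data.

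BHMT2 and the gene lists were chosen with earlier results of these data known. Genes named are BHMT2, the matched methionine genes, the neighbours in RefSeq, and those most like or unlike BHMT2 over all libraries; of these last, 3 unnamed identifiers are printed, and the ranking among named genes and the within-steer change were added after the values were seen.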

Additional observations from a re-analysis of the deposited data

Results flagged for a closer look

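In 5 of 45 sets of 4 to 10 libraries (a gene in a group), the highest library stood apart from the rest by Dixon's ratio, which chance alone gives in about 1 of 20 sets. For BHMT2 this was high RFI HF steer 5633 on ZG, at 44.4 CPM against 20.8 CPM for the next steer. DMGDH was at 290.7 CPM in low RFI CH steer 1831 for H1, next to 208 CPM, and BHMT2 was also highest of its group in this library. SARDH was at 107 CPM in low RFI CH steer 454 for H2, next to 48.1 CPM. AHCY in the same library was at 4868 CPM, next to 2796 CPM. Its BHMT2 and DMGDH levels were the lowest of all libraries. AHCY was at 2786 CPM in low RFI HF steer 2220 for H1, next to 2041 CPM.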

How the results depend on the processing

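Of 170 alternative values of the 18 BHMT2 log2 fold changes, 2 passed the threshold and 10 changed sign; the others kept their direction and, where tested, their side of the threshold. The 12 alternative values of low over high RFI in CH on ZG have no test. The 2 that passed were ZG over H1 in CH in limma-voom, 0.56 without and 0.54 with the replicate block. This contrast takes in the low RFI ZG libraries that led to the choice of the gene. The block, like limma-voom without it, turned H2 over H1 in CH, to -0.030 and -0.0081, and it changed no other BHMT2 call. CH over HF in H2 was -0.0025 with all 12 groups in one fit and -0.084 without the libraries of steer 1797, and it ran from -0.084 to 0.10 when low RFI HF steers were left out in turn. The RFI difference of HF in H2 was 0.12 without steer 1797 and ran from -0.25 to 0.12 in turn. The RFI difference of CH on ZG stayed between 1.18 and 1.37 under all 12 alternatives. The agreement between phases was 0.95 for CH with deviations from the breed and diet mean, which take in the RFI difference on ZG that led to the choice of the gene, and then 0.65 without 2 of the 6 steers. It was 0.73 (exact permutation p = 0.043, unadjusted) for HF with the first and last phase, which changes the library of HF steer 5632 alone. In the main setting, 4 of 8 HF steers and 5 of 6 CH steers lay on the same side of their group means in both phases. The causes were not tested.

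Counts of genes called moved by more than 1.5 times as follows. For RFI, DESeq2 called 160, 158 and 4 genes for CH and 26, 2 and 5 for HF in H1, ZG and H2, against 2, 0 and 0 and 0, 0 and 0, and 1 over the 5 comparisons against 0. With all 12 groups in one fit the RFI counts were 4 and 5 for CH in H1 and H2, and 13 and 2 for HF in H1 and ZG; with the block they were 0 for CH in H1 and 2 for HF on ZG. For ZG over H1 in CH, 3550 became 2069 at 0.05, 6024 with the block 763 without steer 788 and 2203 without steer 1816. For H2 over ZG in CH, 635 became 244 at 0.05, 423 without the filter, 1220 in DESeq2, 1034 with the block, 393 in one fit and 82 to 1798 with a steer left out. For H2 over ZG in HF, 627 became 313 at 0.05, 1016 in DESeq2, 1010 in one fit, and 355 to 413 without steer 1797, 2220 or 5612. Between breeds, 669 became 390 at 0.05 and 295 in one fit for H1, 0 became 14 and 9 for ZG in DESeq2 and one fit, and 83 became 53 at 0.05 166 in DESeq2 and 52 without steer 1657 for H2. Left out in turn, CH steers 1831, 788 and 437 gave 4, 1 and 7 calls between breeds on ZG, and steer 788 gave 1 call between RFI groups.

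With 3 steers a side, CH on ZG rests on few animals, and an exact permutation test could not go below 0.1. Depth left a counting error of up to 13.0% in a BHMT2 value, under the biological variation of 34.0%.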

Other observations

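DMGDH, the neighbour of BHMT2 that encodes dimethylglycine dehydrogenase, was higher on ZG than in H1 in 6 of 6 steers that had both libraries, by 0.51 on the log2 scale on average, and higher in H2 than in H1 in 7 of 8 steers, by 0.46 on average. The exception was CH steer 307, at 191 CPM in H1 and 179 CPM in H2. HF steer 5632 went from 100 to 221 CPM of DMGDH between H1 and ZG, and CH steer 1816 from 160 to 175 CPM. The change within steers was not tested for DMGDH, and it was looked at after its values were seen. The CH libraries on ZG among these belong to the contrast for which the study listed DMGDH.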
